A study of Rattus norvegicus with 24 samples.

Results

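Vnn1 encodes vanin-1, a pantetheinase, and was read by 1 probe set of the 20917 on the array, the only one among 18197 single-gene probe sets with the platform symbol Vnn1. It was picked because its signal on a high-fat diet had been seen to differ between lines of rats, so its own levels and differences are given here as a description, with standard errors and no p-value. Liver RNA came from adult female Sprague-Dawley rats, the grandoffspring (F2) of males fed chow or a high-fat diet (HFD). Their own diet, given for 12 weeks as adults, was chow or an HFD with 42 or 45% of energy from fat. Of the 24 arrays, 7 were from females of the chow line (chow-fed grandfather) on chow, 6 from the chow line on the HFD, 6 from the HFD line (HFD-fed grandfather) on chow and 5 from the HFD line on the HFD. Litters and grandfathers are not named for the females, so p-values measure only the spread between these samples and would be too small if females were related.

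Vanin-1 is an enzyme anchored to the outer face of the cell membrane. It splits pantetheine, a breakdown product of coenzyme A, into pantothenic acid (vitamin B5) and cysteamine; the vitamin can be built back into coenzyme A, and cysteamine can be oxidised towards taurine. In liver the gene is known as a target of PPAR alpha, the nuclear receptor that fatty acids activate and that switches on genes of fatty acid oxidation. Vnn3 is its paralog and Btd, which encodes biotinidase, belongs to the same enzyme family.

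The deposited values are linear intensities, and array medians lay between 97.9 and 128. Differences are on the log2(intensity + 16) scale, and the number of arrays limits their precision. The liver label was checked against marker genes: Alb lay between 9770 and 13114 on the 24 arrays, while the fat cell genes Adipoq and Lep stayed at no more than 82.3 and 54.3. Array 24 of the HFD line on the HFD, and 3 of the chow line, 21 and 25 on chow and 22 on the HFD, had stood apart from the others in earlier work on these data, and values without them are given where they change a result. Whole liver RNA cannot tell fewer cells of a type from less RNA per cell.

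In chow-line females on chow, the Vnn1 intensity ran from 99.3 over a median of 204 to 441, a 4.44-fold range among 7 arrays. Array 28 was the highest of them and arrays 30 and 26 the lowest. In chow-line females on the HFD it ran from 590 over a median of 632 to 985, and 5 of those 6 arrays lay between 590 and 688. All 6 HFD arrays were above all 7 chow arrays of this line, so these groups did not overlap. The share of all probe sets that separate these groups was not counted. In log2 signal the means were 7.81 ± 0.71 (SD, n = 7) on chow and 9.43 ± 0.27 (SD, n = 6) on the HFD, a difference of 1.63 ± 0.29 (SE). Of all probe sets, 0.0765% passed limma's adjusted threshold of 0.05 as higher in this comparison. Its HFD arrays also enter the difference between lines for which Vnn1 was picked. Array 34, at 985, was the highest of the series.

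**Figure D1:**
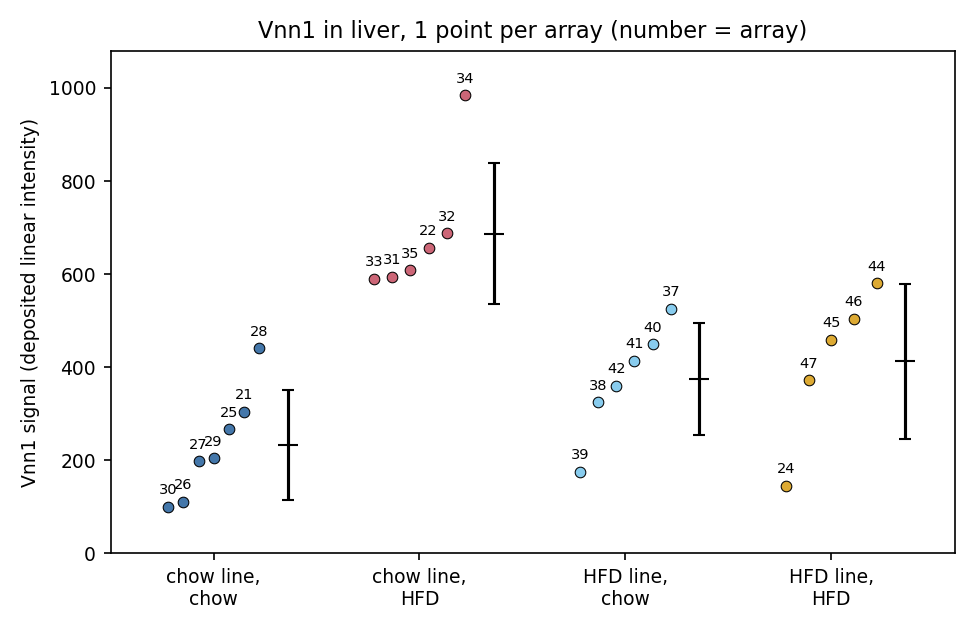
Deposited Vnn1 intensity (vertical axis, linear, from 0) on each of the 24 arrays, by line and own diet; points carry the array number, and the bar beside each group is the mean with its SD. The 6 chow-line arrays on the HFD lie at 590 or above and every other array lies at 580 or below.

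HFD-line females showed no such gap between the diets. On chow their Vnn1 intensity ran from 175 (array 39) over a median of 386 to 525 (array 37). On the HFD the 5 arrays read 145, 371, 459, 504 and 580. Of these, 1 was below every chow array of the line, 3 lay within the chow range and 1 was above it, so the groups overlapped. The log2 means were 8.54 ± 0.52 (SD, n = 6) on chow and 8.61 ± 0.75 (SD, n = 5) on the HFD, a difference of 0.08 ± 0.32 (SE) with a 95% interval from -0.58 to 0.73. The lowest of the HFD arrays was array 24, and without it the difference was 0.40. Without array 39, the lowest on chow, it was -0.12.

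Set in order, the group means ran from the chow line on chow, over the HFD line on chow and the HFD line on the HFD, to the chow line on the HFD. The middle groups differed by less than the SD of either. On chow, the HFD line was higher than the chow line by 0.73 ± 0.29 (SE), beside SDs of 0.71 in the chow line and 0.52 in the HFD line. Of the chow-line arrays on chow, 5 of 7 were above the lowest HFD-line array on chow. On the HFD, the HFD line was lower by 0.82 ± 0.32 (SE), and all 5 of its arrays read below all 6 of the chow line, the nearest pair being 580 and 590. Without array 24 that last difference was -0.50. The share of all probe sets that separate these groups was not counted. For this comparison the median over all probe sets was -0.10, and 1668 of the 1722 with an unadjusted limma p under 0.05 were lower. The difference between the lines in the response to diet was -1.55 ± 0.43 (SE), and -1.23 without array 24. Of 15687 probe sets tested with limma, 0% passed for the line difference, Vnn1 included; 1523 had an unadjusted p under 0.05, of which 1289 were negative.

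**Figure D2:**
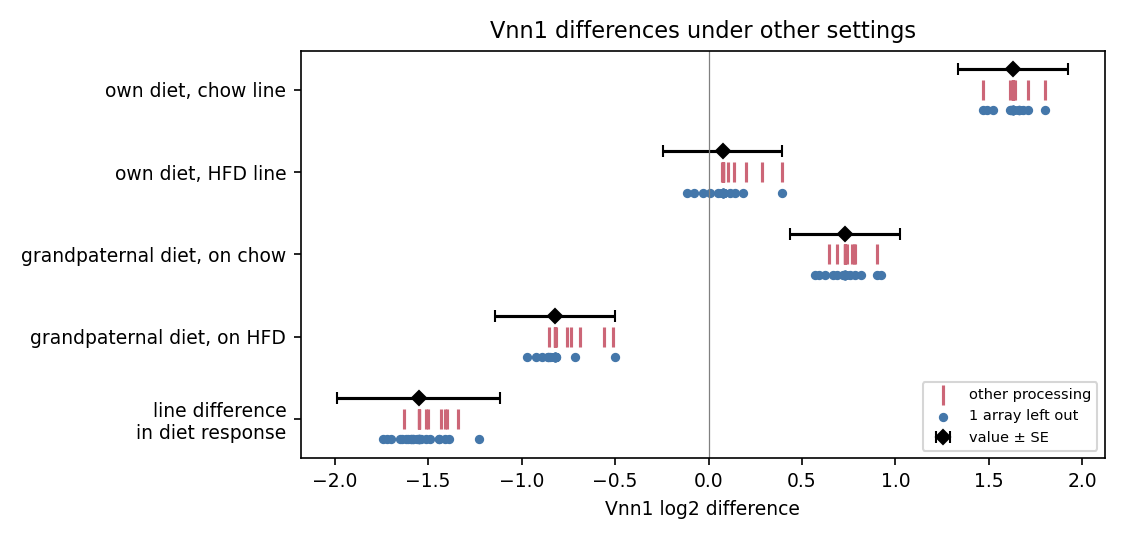
Vnn1 log2 difference (horizontal axis) in 5 comparisons: the value with its standard error (diamond), the values under other processing (vertical ticks) and the values with 1 array left out (dots). The own-diet difference in the HFD line crosses 0, from -0.12 to 0.40, when single arrays are left out, while the other 4 keep their sign.

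The spread within groups was not the same in all of them. The coefficient of variation of Vnn1 was 51.1% in the chow line on chow, 32.1% in the HFD line on chow, 40.5% in the HFD line on the HFD and 22.0% in the chow line on the HFD. The lowest value of each group other than the chow line on the HFD was 175 or less, while in that group the lowest was 590. In the HFD line on the HFD the lowest was array 24, at 145, and the other arrays of that group read 371 to 580. The coefficient of variation without array 24 was not computed. The spread between groups was not tested.

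Vnn3 and Btd did not pass the adjusted threshold in either line; in the chow line their differences were smaller than that of Vnn1, and in the HFD line they were larger in size. Vnn3 lies next to Vnn1 in the RefSeq gene order. Its intensity was 376 to 779 in the chow line on chow and 564 to 830 on the HFD, with a difference of 0.34 ± 0.18 (SE; limma adjusted p = 0.594). The HFD line gave 343 to 823 on chow and 346 to 665 on the HFD, with a difference of 0.19 ± 0.19 (adjusted p = 0.63). The ranges overlapped in both lines. Btd, which frees the vitamin biotin for reuse, differed by -0.16 ± 0.12 in the chow line (adjusted p = 0.782) and by -0.25 ± 0.13 in the HFD line (adjusted p = 0.349). For the difference between lines, Vnn3 was at -0.15 ± 0.26 and Btd at -0.09 ± 0.18.

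**Figure D3:**
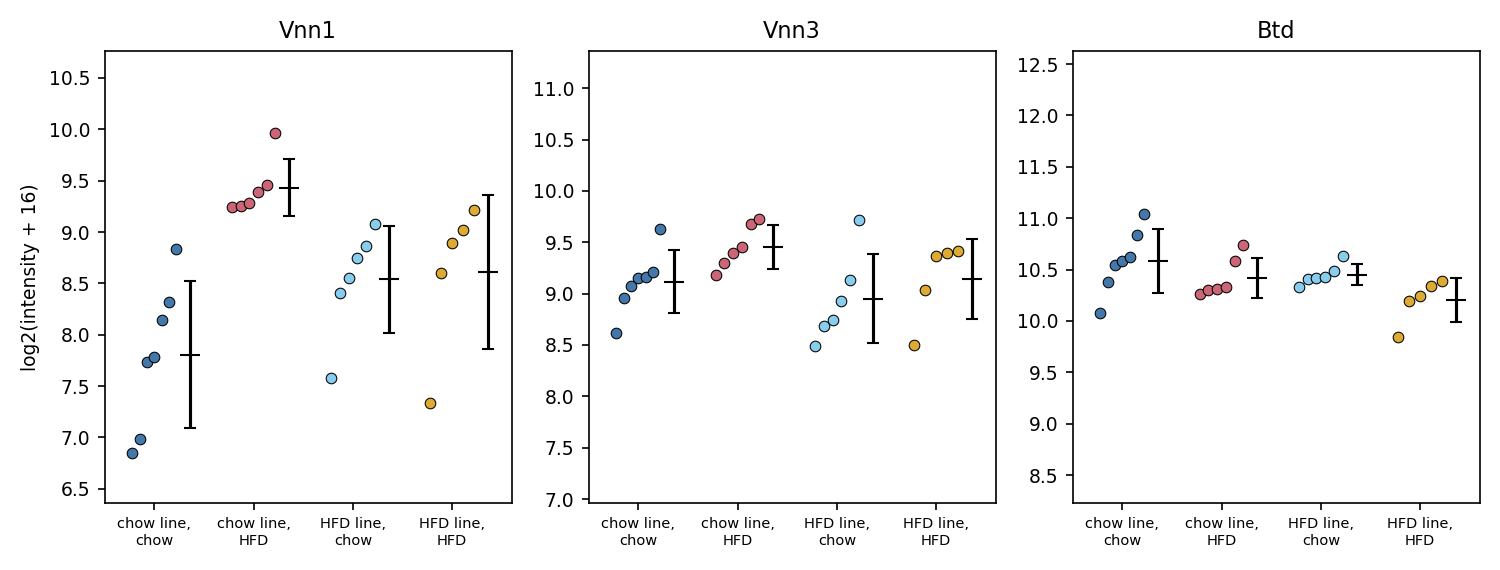
Signal of Vnn1, Vnn3 and Btd as log2(intensity + 16) on each array, by line and own diet, with the mean and SD beside each group; all panels span the same number of log2 units. The chow and HFD arrays of the chow line separate for Vnn1 and overlap for Vnn3 and Btd.

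Beyond Vnn3, the next measured genes on that side were Slc18b1, a vesicular amine transporter, and Rps12, a ribosomal protein. Slc18b1 differed by 0.07 in the chow line (adjusted p = 0.931) and by -0.31 in the HFD line (adjusted p = 0.210), and Rps12 by 0.13 (adjusted p = 0.866) and -0.24 (adjusted p = 0.416). Rps12 has several probe sets, of which the brightest is given, and copies elsewhere may share its signal. On the other side lie trace amine receptor genes, of which 10 were within 12 genes; 9 had a probe set of their own and 1, Taar7d, was bright enough to be tested. Taar7d was at -0.20 in the HFD line (adjusted p = 0.368).

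The pathway that vanin-1 feeds was followed in a list of coenzyme A genes. Of 17 listed genes, 16 were tested, and 0 passed limma's adjusted threshold in either line or for the line difference, where 0.319%, 0.752% and 0% of all probe sets passed. In the chow line 9 of the 16 were higher on the HFD, with a median of 0.02 against 0.01 over all probe sets. In the HFD line 14 of 16 were lower, with a median of -0.21, while 71.6% of all probe sets were lower there and their median was -0.09. After quantile normalization 14 of 16 were still lower, with a median of -0.08, against 51.0% of all probe sets. Pank1, a pantothenate kinase that starts coenzyme A synthesis, was at 0.12 in the chow line and -0.30 in the HFD line (adjusted p = 0.771 and 0.125). Coasy, which carries out the final steps, was at 0.23 and -0.18 (adjusted p = 0.593 and 0.472). Nudt7, the peroxisomal enzyme that cleaves coenzyme A, was at 0.29 and -0.37 (adjusted p = 0.669 and 0.326). Slc25a42, which carries coenzyme A into mitochondria, was at 0.12 and -0.35 (adjusted p = 0.922 and 0.357).

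Genes around the other product, cysteamine, and around glutathione gave 0 calls in either line as well. Over all probe sets 0.319% passed in the chow line and 0.752% in the HFD line. All 9 tested genes of cysteamine and taurine were compared, among them Csad, which makes hypotaurine from cysteine sulfinate. Csad was at -0.99 in the chow line (adjusted p = 0.235) and -1.29 in the HFD line (adjusted p = 0.0579), and its call depended on the setting. With array weights it passed as lower in the chow line (-1.27, adjusted p = 0.0347). In the HFD line it passed with the dimmest 50% of probe sets left out (adjusted p = 0.0457), without array 30 (adjusted p = 0.0452) and without array 41 (adjusted p = 0.0355). Of 9 tested glutathione genes, the largest difference was in Gclm, the regulatory subunit of glutamate-cysteine ligase, at -0.30 and -0.48 (adjusted p = 0.596 and 0.167).

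The receptor itself did not pass the test in either line, and 1 of its partners did. Ppara was at 955 to 1693 in the chow line on chow and 1492 to 2212 on the HFD, a difference of 0.27 (adjusted p = 0.633). The HFD line was at 1054 to 1982 and 1360 to 2260, a difference of 0.20 (adjusted p = 0.548). Its partner receptor Rxra was at 0.08 and -0.06, and the coactivator Ppargc1a at -0.22 and -0.30, with adjusted p-values of 0.522 to 0.876. Of all probe sets, 0.319% passed in the chow line and 0.752% in the HFD line. Of the 13 partner genes tested, 1 passed in the chow line and 0 in the HFD line. It was Nr0b2, a repressor of bile acid synthesis, which rose in the chow line by 1.13 (adjusted p = 0.0354), from 192 to 738 on chow to 724 to 1526 on the HFD, and was at 0.56 in the HFD line (adjusted p = 0.309). The Nr0b2 call was lost without arrays 21, 22, 24 and 25 together (adjusted p = 0.072), with a robust fit (adjusted p = 0.0874), and in each of 9 fits with 1 array left out.

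Other targets of PPAR alpha were mostly higher on the HFD in the chow line and lower in the HFD line. Of 33 tested, 28 were higher in the chow line (median 0.18), against 54.4% and 0.01 over all probe sets. Lower in the HFD line were 29 of the 33, with a median of -0.19, against 71.6% and -0.09. Single members rarely passed: 1 of 33 in the chow line, 0 in the HFD line and 0 for the line difference, beside 0.319%, 0.752% and 0% of all probe sets. The call was Fabp2, a fatty acid binding protein, which rose from 92.1 to 212 on chow to 305 to 684 on the HFD in the chow line (1.35 ± 0.26 SE, adjusted p = 0.0103). Without arrays 21, 22, 24 and 25 its adjusted p was 0.0552. Fabp2 was at 0.60 ± 0.28 in the HFD line (adjusted p = 0.301), above 0 unlike most of the list.

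In 25 of the 33 targets the chow line was above 0 and the HFD line below 0, and in 1 the reverse held; 37.5% of all probe sets were above 0 in the chow line and below 0 in the HFD line. The comparisons share no arrays, but within each of them all 33 targets were read on the same arrays and are not replicates of each other. Eci1, an isomerase for the oxidation of unsaturated fatty acids, was at 0.61 ± 0.22 and -0.45 ± 0.23 (adjusted p = 0.374 and 0.346). Ech1, a dienoyl-CoA isomerase, was at 0.57 ± 0.18 and -0.33 ± 0.19 (adjusted p = 0.236 and 0.387). Decr1, a dienoyl-CoA reductase, was at 0.55 and -0.22 (adjusted p = 0.177 and 0.537). Cpt1a, which commits fatty acids to mitochondrial import, was at 0.58 and -0.20 (adjusted p = 0.488 and 0.727). Scaling moved these counts in the HFD line: 25 of 33 were lower after centring each array on its median and 20 of 33 after quantile normalization, with medians of -0.13 and -0.04. Without array 24 the count there was 25 of 33 and the median -0.09. In the chow line 29 and 26 of 33 were higher after centring and quantile normalization. For the difference between lines, 30 of 33 were negative as deposited and after centring, and 24 after quantile normalization, with medians of -0.36, -0.31 and -0.18. The median over all probe sets for the difference between lines was -0.10 as deposited. Its values after scaling, and the share of all probe sets that were negative, are not given here. The counts of 30 and 24 are therefore not set against the general shift.

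**Figure D4:**
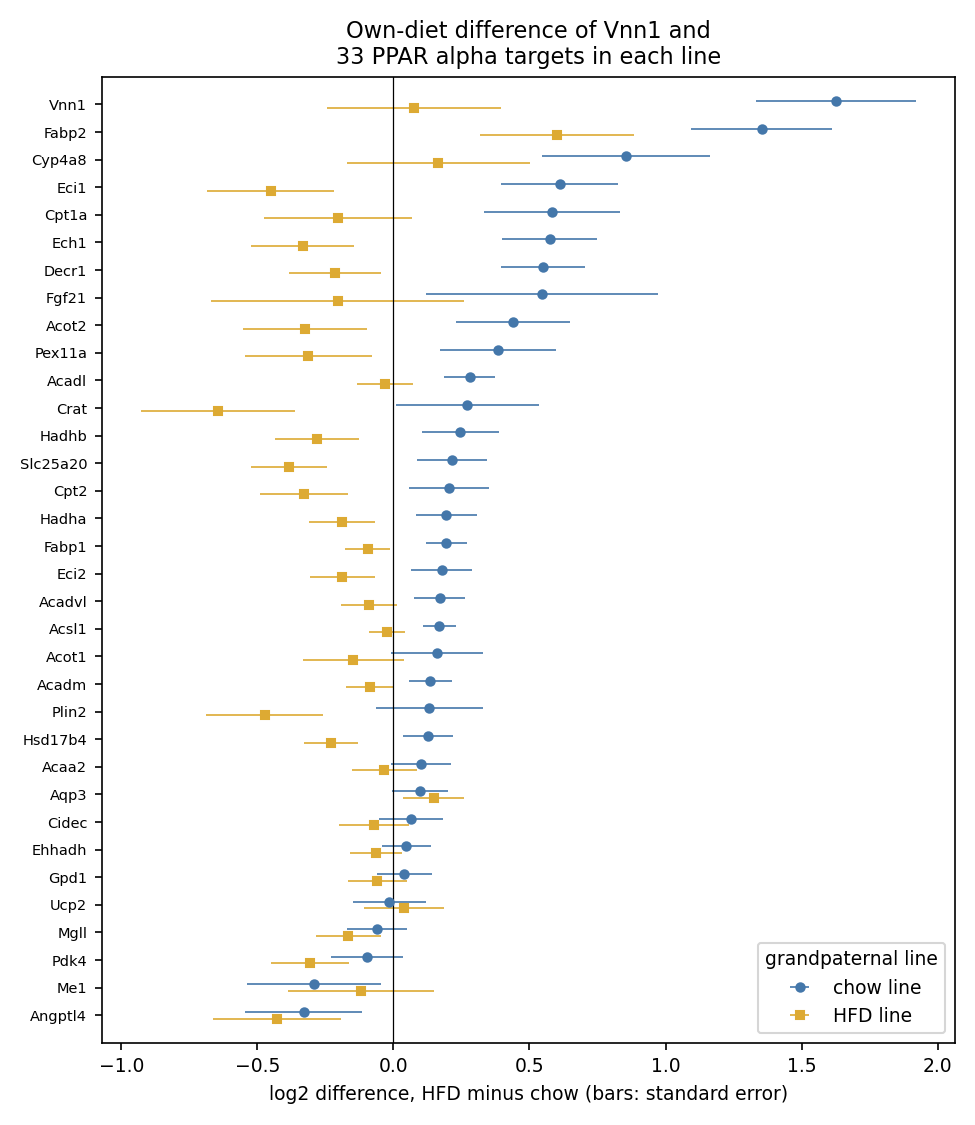
Log2 difference, HFD minus chow (horizontal axis), with its standard error, of Vnn1 and 33 PPAR alpha targets (rows, ordered by the chow line) in the chow line (circles) and the HFD line (squares). Vnn1, at 1.63 and 0.08, has the largest chow-line difference shown, and in 25 targets the circle lies above 0 and the square below it.

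Of 10 hepatocyte markers tested, 0 passed in either line, where 0.319% (chow line) and 0.752% (HFD line) of all probe sets passed. In the chow line all 10 tested were higher on the HFD (median 0.15), and in the HFD line all 10 were lower (median -0.04, against -0.09 over all probe sets); after centring 3 of 10 were lower there, and with quantile normalization 4 of 10 were higher in either line. Their summed intensity was 72127 to 85984 in the chow line on chow, 81851 to 88815 on the HFD, 76526 to 91067 in the HFD line on chow and 74490 to 83470 on the HFD. Each of the 12 tested macrophage markers was lower on the HFD in both lines (10 of 12 in the HFD line after quantile normalization). In each line 1 of the 12, the scavenger receptor gene Marco, fell, beside 0.242% of all probe sets in the chow line and 0.657% in the HFD line. The HFD-line call was lost under 9 alternatives, among them the fit without array 24 (adjusted p = 0.0657). Their summed intensity was 6827 to 11302, 4274 to 7243, 5937 to 9961 and 5077 to 8103 in the same order. Of 9 adipocyte markers, Cidea, a lipid droplet protein gene, fell in both lines (-0.94 and -1.32, limma adjusted p = 0.0438 and 0.00397). Its chow-line call was lost under 20 alternatives (adjusted p up to 0.186, without arrays 21, 22, 24 and 25). The 9 markers went both ways, with 5 lower in the chow line and 4 in the HFD line (medians -0.03 and 0.04). Of 6 bile duct markers, Epcam, an adhesion molecule, fell in the HFD line (-0.76, limma adjusted p = 0.0139). The 6 did not all go with it: 4 were lower in the HFD line and 2 in the chow line. Their HFD-line median was -0.0085, against -0.09 over all probe sets. The summed adipocyte markers were 5294 to 8650 and 4073 to 7444 in the chow line, and 5040 to 7794 and 3485 to 5359 in the HFD line, on chow and on the HFD. In the lists of lymphocyte, endothelial, stellate, acinar, erythroid, neutrophil and monocyte, and intestine and kidney tubule markers, 0 passed in either line. Of these, 6 of 12 neutrophil and monocyte markers and 4 of 10 intestine and kidney tubule markers were bright enough to be tested. The part of these cell types in the Vnn1 differences was not tested.

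Within groups, Mtfr1, Slc25a20 and Eci1 were the genes most like Vnn1. Likeness was the Pearson correlation over the 24 arrays of each gene's deviations from its group means, so that no group difference enters. It is a description with no p-value, and the arrays share their brightness and sample quality. Of 12720 genes ranked, 2.23% had r above 0.5, and the median r was 0.05. Mtfr1, a regulator of mitochondrial fission, came first (r = 0.823, Spearman rho = 0.841). Slc25a20, which carries acylcarnitines into mitochondria (r = 0.797, rho = 0.641), Eci1 (r = 0.793, rho = 0.723), Vwa8, a mitochondrial ATPase-like protein (r = 0.777, rho = 0.755), and Crat, carnitine acetyltransferase (r = 0.777, rho = 0.783), followed. The next were Ech1 (r = 0.774), Acot2, a mitochondrial acyl-CoA thioesterase with a close paralog in Acot1 (r = 0.771), Pik3ap1, an adaptor for phosphoinositide 3-kinase (r = 0.748), Aig1, a hydrolase of fatty acid esters (r = 0.734), Cpt2, which releases acyl groups from carnitine (r = 0.732), Shisa3 (r = 0.728) and the cochaperone Dnajc12 (r = 0.722).

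Of these 12 genes, 6 were on the list of 33 PPAR alpha targets, and 15 of the 33 targets had r above 0.5, with a median of 0.48. Ppara itself had r = 0.249. Among coenzyme A genes, 3 of 16 had r above 0.5: Nudt7 (0.63), Slc25a42 (0.52) and Pank2 (0.50). Vnn3 had r = 0.331 and Btd r = 0.0322, while the neighbour Slc18b1 had r = 0.515. Creb3l3, a liver transcription factor for lipid genes, had r = 0.573 and Fabp2 r = 0.267.

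The females at the extremes of Vnn1 were in most groups also at the extremes of these genes. In the chow line on chow, array 28 was the highest for all 12 genes, as for Vnn1, and array 30 the lowest for 11 of 12. In the HFD line on chow, array 37 was the highest and array 39 the lowest for 10 of 12 each. Array 24 was the lowest of the HFD line on the HFD for all 12 genes, and array 44 the highest for 9 of 12. The overlap was least in the chow line on the HFD, with array 33 the lowest for 6 of 12 and array 34 the highest for 8 of 12. The Vnn1 deviations of these arrays were 1.03 (array 28), -0.96 (array 30), 0.54 (array 37), -0.96 (array 39), -1.28 (array 24) and 0.60 (array 44), and those of Eci1 were 0.64, -0.52, 0.75, -0.52, -0.78 and 0.77. The genes had been chosen by their likeness, so shared extremes follow in part from the choice. The median intensities of arrays 28, 30, 37, 39, 24 and 44 were 126, 102, 118, 116, 109 and 106, and Vnn1 deviations correlated with the array median at r = -0.0877 over all arrays. Their summed hepatocyte markers were 85980, 72130, 87540, 76530, 77820 and 74490, in the same order. The 10 hepatocyte markers had a median r with Vnn1 of 0.32, against 0.05 over all genes ranked. The part of hepatocyte content in the shared extremes was not tested.

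Without arrays 30 and 26, the farthest from the Vnn1 median, r of the 12 genes was 0.599 (Shisa3) to 0.803 (Mtfr1). Without arrays 24 and 28, which had the largest Vnn1 deviations from their group means, r was lower, from 0.471 (Shisa3) to 0.72 (Mtfr1), with Slc25a20 at 0.617 and Ech1 at 0.571. Without arrays 21, 22, 24 and 25 it was 0.592 to 0.848. After centring each array it was 0.738 to 0.827, and after quantile normalization 0.703 to 0.791. Taken group by group, r was 0.636 to 0.961 in the chow line on chow (n = 7), 0.216 to 0.778 in the chow line on the HFD (n = 6) and 0.0513 to 0.861 in the HFD line on chow (n = 6). The low ends of the last 2 ranges were Pik3ap1 and Shisa3. The 5 arrays of the HFD line on the HFD were too few for a value of their own. The ranking itself was less steady than these values, since 6 of the 12 genes were again among the first 12 without arrays 21, 22, 24 and 25, and 9 after centring.

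**Figure D5:**
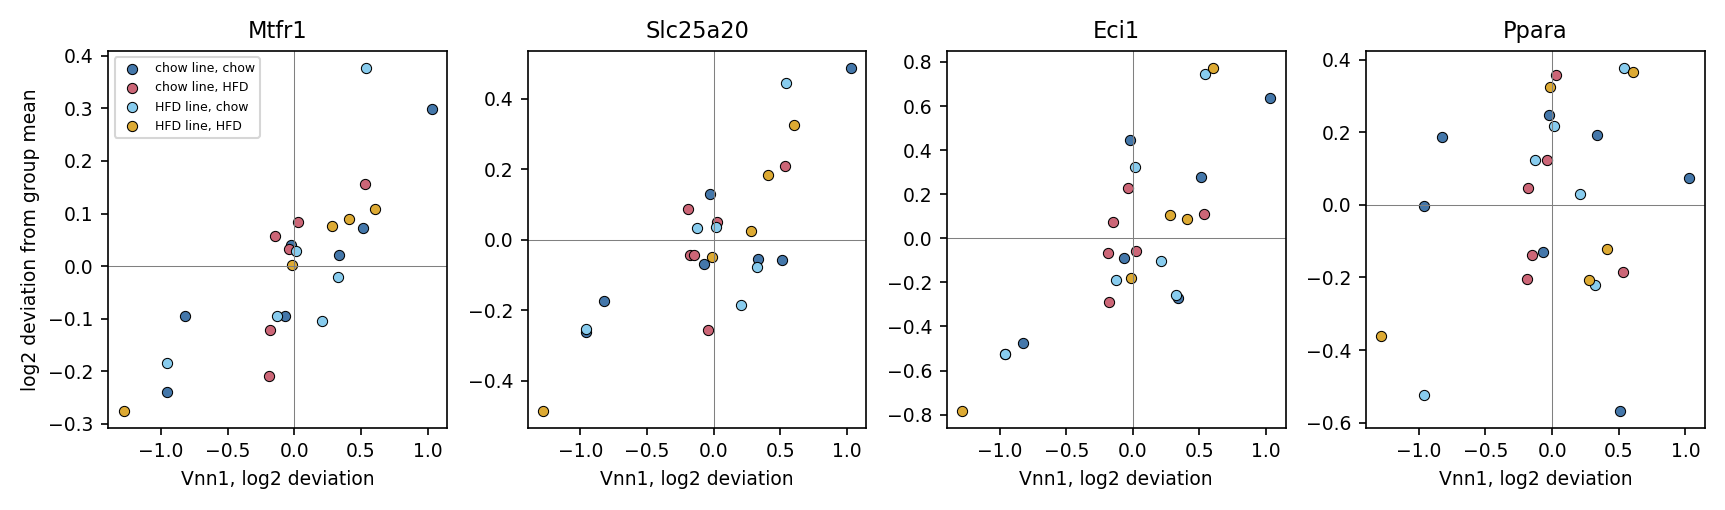
Log2 deviation from the group mean of Mtfr1, Slc25a20, Eci1 and Ppara (vertical axes, each with its own scale) against that of Vnn1 (horizontal axis); each point is 1 of the 24 arrays, coloured by line and own diet. The first 3 genes rise with Vnn1 (r = 0.823, 0.797 and 0.793), and Ppara does so less (r = 0.249).

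The genes at the other end were Vax2 (r = -0.768), Cabp4 (-0.729), Krt82 (-0.727), Nwd1 (-0.726), Prss34 (-0.704) and Sprr1a (-0.688). Vax2 is an eye homeobox factor, Krt82 a hair keratin and Sprr1a a protein of the skin barrier. All 6 were dim, between 26.9 (Sprr1a) and 110 (Vax2) over all arrays. That is near the levels of the fat cell genes Adipoq (36.7 to 82.3) and Lep (29.3 to 54.3) in these livers. After quantile normalization their r was -0.429 (Cabp4) to -0.652 (Vax2). None of the 12 most alike or these 6 passed limma's adjusted threshold for own diet in either line; the smallest adjusted p was 0.185, for Slc25a20 in the HFD line.

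The 6 other genes with the smallest p for a line difference of the same sign as that of Vnn1 were Fam181b, Akr1e2, Serpina3c, Zfp593, Gtf2b and Serpina3l. Their differences were between -0.39 (Serpina3c) and -0.70 (Gtf2b), less than that of Vnn1, and their limma adjusted p-values were 0.131 to 0.142. Akr1e2, an aldo-keto reductase, was at 0.36 ± 0.10 in the chow line and -0.25 ± 0.11 in the HFD line. Gtf2b, a general transcription factor, was at 0.22 ± 0.12 and -0.48 ± 0.13, and the protease inhibitor gene Serpina3l at 0.13 ± 0.09 and -0.42 ± 0.10, of which the fall in the HFD line passed (adjusted p = 0.0414). That call was lost under 15 alternatives, among them quantile normalization (adjusted p = 0.238), centring (adjusted p = 0.135) and the fit without array 24 (adjusted p = 0.0847). Serpina3c and Serpina3l belong to a family of close copies, so their probe sets may share signal. Their within-group r with Vnn1 was 0.221 (Akr1e2) to 0.660 (Zfp593). Without array 28, the chow-line female on chow with the highest Vnn1, 57 probe sets passed for the line difference, among them Fam181b, Akr1e2, Serpina3c, Zfp593 and Gtf2b (adjusted p = 0.0289 to 0.0453).

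PPAR alpha binds DNA with Rxra at a direct repeat of the site AGGTCA with 1 base between the copies. The 250 bases upstream of the RefSeq start (GRCr8) were searched on both strands in the genes most like Vnn1 and in the PPAR alpha targets, where the promoter table held them, which was 8 of the 12 and 28 of the 33. The full repeat AGGTCANAGGTCA was in 0 of the 29 target promoters and in 0.0508% of all 33469 promoters. With 1 more base free, AGGNCANAGGTCA, it was in 1 of 29, that of Fabp1, and in 0.0866% of all. The single site AGGTCA, which the longer motifs contain, was in 1 of 8 promoters of the genes most alike (Eci1), in 4 of 29 target promoters and in 14.1% of all. A match is a description of the letters and shows no binding. Both promoters are on the + strand and are printed 5′ to 3′ as examples of a target with a high r (Eci1) and of the longer match (Fabp1), with the matched letters in capitals, in each case the reverse complement of the motif. That of Fabp1, from base -77 to base -65 before the start, is at chr4:104749090-104749339, and that of Eci1, from base -94 to base -89, at chr10:13961000-13961249. Fabp1, the main fatty acid binding protein of liver, was at 0.19 in the chow line and -0.10 in the HFD line (adjusted p = 0.425 and 0.571), with r = 0.434.
Fabp1: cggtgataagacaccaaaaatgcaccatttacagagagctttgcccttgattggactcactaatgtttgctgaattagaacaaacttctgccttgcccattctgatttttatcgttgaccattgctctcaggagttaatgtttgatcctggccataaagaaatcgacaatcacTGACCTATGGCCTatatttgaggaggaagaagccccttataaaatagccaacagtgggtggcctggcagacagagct
Eci1: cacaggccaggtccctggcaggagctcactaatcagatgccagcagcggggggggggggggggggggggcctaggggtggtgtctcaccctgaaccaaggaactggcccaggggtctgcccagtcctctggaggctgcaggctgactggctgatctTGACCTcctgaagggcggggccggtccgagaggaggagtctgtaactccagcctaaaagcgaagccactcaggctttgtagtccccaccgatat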

How the data were processed

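Per the labels' protocols, total liver RNA was turned into biotin-labelled sense-strand cDNA and hybridised to 1 Affymetrix array per female; the growth protocol speaks of gonadal fat, while titles, source and tissue labels say liver. Per the submitters' processing notes, Expression Console and PLIER, both of Affymetrix, were used, and the authors deposited linear intensity values, 1 for each probe set on an array. Versions, background correction and genome build were not given in the sources used here. From it, log2(intensity + 16) was computed with no further normalization, and the dimmest 25% of probe sets by mean (5230, below 5.72) were not tested. The 15687 others were fitted with limma 3.58.1 in R 4.3.3 (4 group means, 24 arrays, eBayes with an intensity trend; two-sided, Benjamini-Hochberg over all 15687, threshold 0.05). The script was tested on simulated data. Gene symbols are those of the platform annotation, brought up to date by Entrez identifier with a RefSeq table (18052 of 18197 matched); 960 probe sets had several genes and 1760 no name. A gene stands for its brightest probe set. The members and lists were chosen with earlier results of these data known. Genes were named by a written rule: the 12 highest and 6 lowest within-group correlations, the 6 smallest p for a line difference with the sign of Vnn1, any vanin, coenzyme A or PPAR alpha partner gene, and up to 6 members with the smallest p per list; the 2 nearest measured neighbours, Taar7d and Fabp1 were added after their values were seen, as were the correlations without the pair of arrays with the largest Vnn1 deviations. The alternatives were quantile normalization, centring, other filters, offsets of 1 and 50, other eBayes options, array weights, a fit on the groups compared alone, omission of arrays 21, 22, 24 and 25 or a term for them, and each array left out.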

Additional observations from a re-analysis of the deposited data

Results flagged for a closer look

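Among 52 named genes in 4 groups each, 16 of 208 sets of log2 signals (7.69%) held 1 array far from its neighbours, by Dixon's test at the 95% level, which flags about 1 in 20 groups by chance. In 6 of the 16 it was array 22 or 24, which had stood apart in earlier work. Vnn1 in the chow line on the HFD was one of them, with array 34 at 9.97 and the next at 9.46. Array 24 of the HFD line on the HFD was low for Mtfr1 (9.63, next 9.91), Dnajc12 (9.74, next 10.58) and Fabp1 (12.23, next 12.48). Array 22 of the chow line on the HFD was low for Coasy (8.82) and Rps12 (9.25) and high for Ppargc1a (8.30). In the HFD line on chow, array 37 was high for Aig1 (7.88) and low for Ppargc1a (6.86), and array 39 was low for Cpt1a (10.51, next 11.90) and high for Prss34 (6.19). Array 28 was high for Nudt7 (9.11, next 8.45) and low for Taar7d (6.24, next 6.58) in the chow line on chow. In the chow line on the HFD, array 32 was high for Slc25a42 (10.33) and array 31 for Epcam (6.73, next 6.20), and array 47 was low for Akr1e2 (9.82) in the HFD line on the HFD.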

How the results depend on the processing

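All 5 Vnn1 differences stayed within 0.593 of the values given, under every alternative that was run, though that for own diet in the HFD line changed sign. This limit is the SD between arrays within groups, wider than the standard errors of the differences (0.29 to 0.43). Leaving out 1 array could not have moved any of the differences that far. With 1 array left out they ranged from 1.47 to 1.80 and from -0.12 to 0.40 for own diet in the chow line and the HFD line, from 0.57 to 0.92 and from -0.97 to -0.50 for grandpaternal diet on chow and on the HFD, and from -1.74 to -1.23 for the line difference. Counts of called probe sets moved more. In the chow line 50 became 89 with quantile normalization, 79 with centring and 95 with array weights, and 34 to 56 with 1 array left out. In the HFD line 118 (15 higher, 103 lower) became 186 with array weights, 77 without arrays 21, 22, 24 and 25, and 56 to 148 with 1 array left out; quantile normalization gave 34 higher and 56 lower. Grandpaternal diet on chow gave 0 calls by limma (1435 at an unadjusted p under 0.05), 1 after quantile normalization and 0 to 1 with 1 array left out; on the HFD it gave 0 (1722 unadjusted) and 0 to 4. The line difference gave 0, and 0 to 57 with 1 array left out. The median over all probe sets was -0.10 for grandpaternal diet on the HFD as deposited and -0.00148 after quantile normalization. Of 9079 alternative values for other named genes, 56 lost and 16 gained a call. Among values called in either fit 0 changed sign, and changes of sign without a call were not counted. Of 576 for correlations, 21 moved by more than their jackknife SD. Most of the 576 left out 1 array, and the jackknife SD was built from those same values. They could hardly exceed it, so the count is no measure of how steady the correlations are. The causes were not tested. No paired analysis was possible because no array number occurs in more than 1 group.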
